A study of Bos taurus with 40 samples.

Results

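The proteasome genes of cattle were examined as all gene symbols that start with PSMA, PSMB, PSMC, PSMD, PSME, PSMF or PSMG and a digit. This rule found 46 of the 13570 genes in the count tables, and each of the 46 had at least 1 read in at least 1 library. The libraries came from 5 cows and 5 bulls of Korean cattle (*Bos taurus*), all slaughtered at more than 22 months of age, and from each animal the pituitary gland, the liver, the longissimus dorsi muscle and the abdominal fat were taken, so that 40 libraries were counted. No treatment was applied, the sexes and the tissues are the groups of the study, and each tissue is a mixture of cell types sampled after slaughter.

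The proteasome is the protease that degrades most ubiquitin-tagged proteins of the cell. Its 20S core is a barrel made of an outer alpha ring (PSMA) and an inner beta ring (PSMB) on either side, and the 19S particle (PSMC and PSMD) on the end of the barrel binds, unfolds and feeds in the substrate. Immune cells and cells exposed to interferon exchange the catalytic subunits PSMB5, PSMB6 and PSMB7 for PSMB8, PSMB9 and PSMB10, which forms the immunoproteasome, and the activator PA28 (PSME1 and PSME2) favours the production of peptides for presentation on MHC class I.

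Of the 46 symbols, 7 encode the alpha ring, 7 the constitutive beta ring, and 4 the inducible or thymic beta subunits PSMB8, PSMB9, PSMB10 and PSMB11. The 19S particle is covered by 6 ATPases of its base and 11 other subunits. The activators PSME1, PSME2 and PSME4 make 3, and the inhibitor PSMF1 together with the assembly chaperones makes 7. PSMC3IP, a protein of meiotic recombination, fits the rule by its symbol but is not a proteasome subunit. PSMA8, PSME3 and PSMG4 are not analysed here.

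Libraries held between 5173092 and 19165864 reads on genes, with a median of 10005607, and the proteasome genes took 0.218% to 0.795% of these reads. Levels are given in CPM, the reads of a gene scaled to a common library size, after TMM scaling, which sets the libraries to a common level over most genes. Levels are not compared between genes, since transcript lengths were not used here. In bulk tissue, fewer cells of a type and less RNA per cell cannot be told apart.

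A pair of libraries stood apart from the rest of their groups. The library labelled liver of bull 3 held 1401 CPM of *XIST* and no read of *DDX3Y*, *USP9Y* or *ZFY*, whereas the livers of the other bulls held at least 45.9 CPM of *USP9Y*. Its correlation with the liver of cow 4 was 0.9932, the highest of any pair of libraries of a tissue, and the next highest in liver was 0.9875. The library labelled fat of bull 5 had the lowest mean correlation with the other libraries of its tissue (0.906) and 1.78 CPM of *USP9Y* against 28.1 to 34.0 CPM in the fat of the other 4 bulls. It also had the highest proteasome share of all libraries, and the results in fat are given again without it after the inducible subunits.

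**Figure D1:**
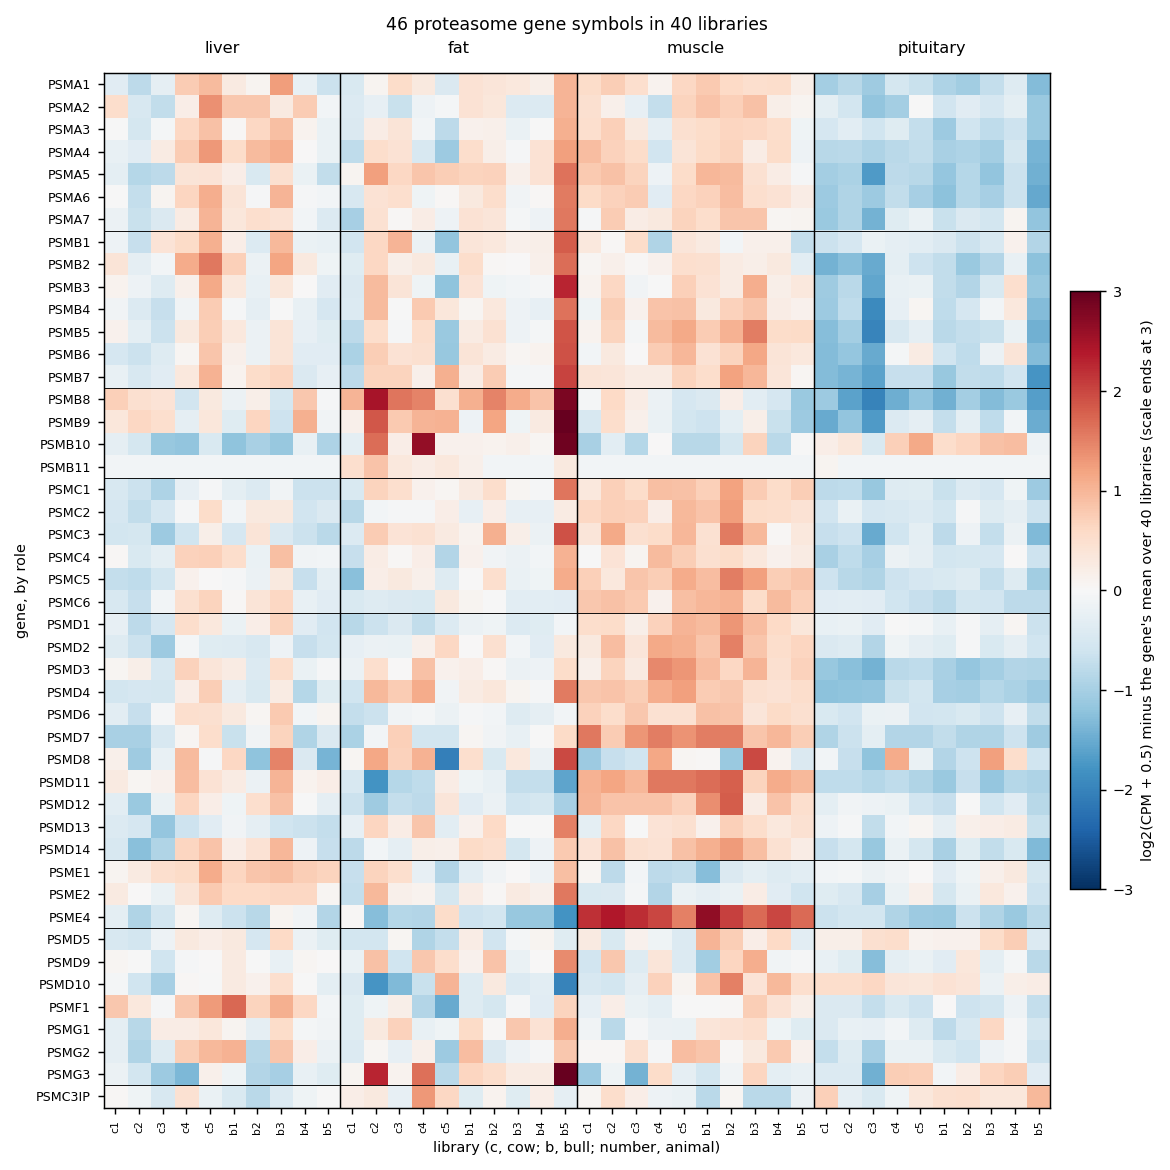
Heat map of the 46 genes (rows, ordered by role) in the 40 libraries (columns, by tissue, cows c1 to c5 and then bulls b1 to b5). Colour is log2(CPM + 0.5) minus the mean of the gene over all 40 libraries, so only differences within a row can be read. Muscle is mostly red, pituitary mostly blue, and the fat of bull 5 is the reddest column of its tissue.

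The first comparison was between tissues. Each tissue was set against the mean of the other 3 with edgeR's quasi-likelihood test, with sex and tissue as terms, and genes with a Benjamini-Hochberg adjusted p under 0.05 over all 13148 genes tested were called. Any difference between tissues was called for 45 of the 46 genes, against a background of 90.6% of all genes, and the exception was PSMD8 (adjusted p = 0.587, edgeR quasi-likelihood test), whose libraries held between 6 and 199 reads. A tissue difference as such was therefore common, and the directions are what the genes are described by.

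In muscle 29 of the 46 genes were called higher and 3 lower, where 30.9% of all genes were called higher and 31.7% lower. In pituitary 2 were called higher and 36 lower, against 33.6% and 31.8% of all genes. In fat 18 were higher and 9 lower, against 33.1% and 29.7%. In liver 8 were higher and 8 lower, against 28.1% and 36.1%. The median log2 fold change of the 46 genes was 0.51 in muscle, -0.80 in pituitary, 0.32 in fat and 0.03 in liver, and that of all genes was -0.13, -0.01, 0.00029 and -0.22.

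These splits depended on the scaling. With library sizes alone in place of TMM factors, the median of all genes moved to -0.66 in muscle, 0.61 in pituitary, 0.44 in fat and -0.65 in liver. The calls then became 12 higher and 13 lower in muscle, 8 and 14 in pituitary, 36 and 2 in fat, and 1 and 27 in liver. Of all 13148 genes, 2211 were then called higher and 6490 lower in muscle, and 7070 and 2358 in pituitary. In fat 6271 of all genes were called higher and 2327 lower, and in liver 2475 and 6771. Relative to the median of all genes the proteasome median hardly moved, from 0.64 to 0.61 in muscle, from -0.79 to -0.80 in pituitary, at 0.31 in fat under both scalings, and from 0.25 to 0.17 in liver. Changes below are therefore relative to the bulk of the genes of the tissue.

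**Figure D2:**
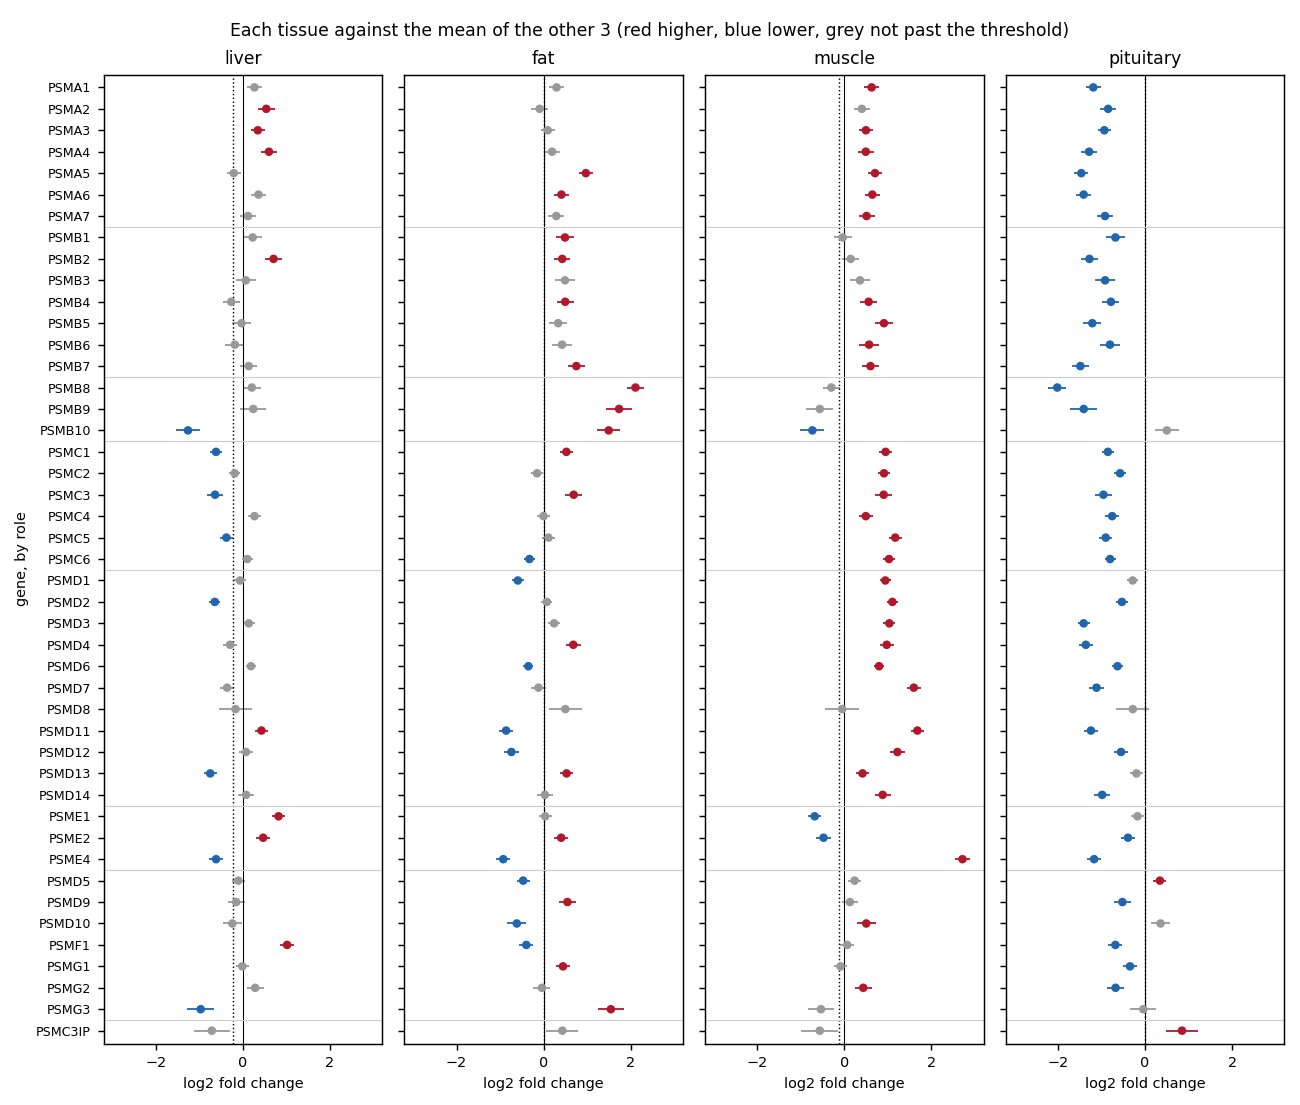
Log2 fold change of 45 genes (rows, by role) in each tissue against the mean of the other 3, with bars of 1 SE. Red and blue points passed the adjusted threshold, grey points did not, the dotted line is the median of all genes, and PSMB11 is left out because it had at most 7 reads per library. All points of the alpha ring and the constitutive beta ring lie left of 0 in pituitary.

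The 20S core and the 19S particle differed in how they moved in muscle. Of the 14 constitutive 20S genes 10 were higher in muscle and none lower, with a median log2 fold change of 0.53. Of the 17 genes of the 19S particle 16 were higher and none lower, with a median of 0.95. All 6 ATPases, which form the ring that unfolds the substrate, were higher, and PSMD8 was the 1 of 11 other 19S subunits that was not. With library sizes alone 11 of the 17 genes of the 19S particle were still called higher. Of the 14 constitutive 20S genes none was then called higher and 2 were called lower. Under that scaling 2211 of all 13148 genes were called higher in muscle and 6490 lower. The direction of the 20S core in muscle is thus relative to the scaling.

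PSMD11, which joins the 19S particle to the 20S core, was among the genes with the clearest rise. Its level ran from 119 to 259 CPM in muscle with a median of 166 CPM, from 66.4 to 152 in liver (median 87.1), from 21.1 to 88.0 in fat (median 45.2) and from 33.3 to 45.9 in pituitary (median 41.2). Every animal had more in its muscle than in the mean of its other tissues, which here and below is taken on the log2 scale, and the muscle libraries overlapped only those of the liver. In muscle the log2 fold change was 1.68 ± 0.16 (SE, adjusted p = 1.32e-13, edgeR quasi-likelihood test).

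PSMD7, a partner of the deubiquitinase PSMD14 in the lid of the 19S particle, ranged from 248 to 442 CPM in muscle with a median of 372 CPM. The medians were 107 CPM in liver, 138 CPM in fat and 80.0 CPM in pituitary, and the highest value outside muscle was 244 CPM. The muscle libraries thus did not overlap those of any other tissue. Its log2 fold change was 1.60 ± 0.17 (SE, adjusted p = 5.70e-12, edgeR quasi-likelihood test).

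The rise with the smallest p-value in muscle belonged to PSME4, which encodes PA200, an activator that caps the 20S core in place of the 19S particle. It had 353 to 786 CPM in muscle (median 503), 65.6 to 130 in liver (median 88.7), 34.9 to 181 in fat (median 67.0) and 56.5 to 84.3 in pituitary (median 68.02). The lowest muscle library was above the highest library of any other tissue, in all 10 animals. In muscle its log2 fold change was 2.71 ± 0.16 (SE, adjusted p = 4.33e-20, edgeR quasi-likelihood test), and the gene was lower in fat, liver and pituitary, where its log2 fold changes were -0.93, -0.62 and -1.17.

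The other activator moved the opposite way in muscle. PSME1 ranged from 29.2 to 74.3 CPM in muscle with a median of 53.3 CPM, and its medians were 113 CPM in liver, 65.5 CPM in fat and 66.6 CPM in pituitary. All 10 liver libraries (76.2 to 156 CPM) lay above all 10 muscle libraries. The log2 fold change of PSME1 was -0.68 ± 0.15 in muscle (SE, adjusted p = 0.000224, edgeR quasi-likelihood test) and 0.82 ± 0.15 in liver (SE, adjusted p = 3.61e-06), and in fat and pituitary it was 0.04 and -0.17 and did not pass the test.

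PSME2, which forms the PA28 ring with PSME1, also had its highest median in liver and its lowest in muscle. It ranged from 22.9 to 50.2 CPM in muscle (median 34.5), from 37.3 to 73.5 in liver (median 60.6), from 25.8 to 130 in fat (median 47.5) and from 21.2 to 53.5 in pituitary (median 35.2). These ranges overlapped for every pair of tissues. For PSME2 the log2 fold change was -0.48 ± 0.16 in muscle (SE, adjusted p = 0.0134) and 0.46 ± 0.16 in liver (SE, adjusted p = 0.0105, edgeR quasi-likelihood test). It was also called higher in fat (0.40, adjusted p = 0.0268) and lower in pituitary (-0.39, adjusted p = 0.0386). The fat call was lost with the animal as a block (0.38, adjusted p = 0.0509), without the fat of bull 5 (0.15, adjusted p = 0.406) and without bull 5 or cow 2, and the pituitary call in 5 of 10 fits that left out 1 animal (adjusted p = 0.0612 to 0.121) and without the fat of bull 5 (-0.31, adjusted p = 0.0624). With library sizes alone PSME1 in pituitary turned to 0.46, PSME2 in liver to -0.025 and PSME2 in pituitary to 0.24.

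The catalytic subunits of the constitutive core were higher in muscle and lower in pituitary. PSMB5, the chymotrypsin-like subunit, had 71.2 to 216 CPM in muscle (median 123), 47.0 to 124 in liver (median 73.6), 33.8 to 278 in fat (median 80.5) and 18.3 to 65.1 in pituitary (median 43.8). Its muscle level was above the mean of the other tissues in 10 of 10 animals, and the lowest muscle library was above every pituitary library. The log2 fold changes were 0.91 ± 0.21 in muscle (SE, adjusted p = 0.000119) and -1.21 ± 0.21 in pituitary (SE, adjusted p = 9.12e-06, edgeR quasi-likelihood test).

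PSMB6, the caspase-like subunit, had medians of 83.0 CPM in muscle, 52.2 CPM in liver, 77.7 CPM in fat and 38.9 CPM in pituitary. Its libraries ran from 58.9 to 140 CPM in muscle and from 21.6 to 81.0 CPM in pituitary, so both ranges overlapped. In muscle its log2 fold change was 0.57 ± 0.22 (SE, adjusted p = 0.0202), which turned to -0.010 with library sizes alone and was lost without bull 3 (0.50, adjusted p = 0.0610) and with the filter on low counts (0.42, adjusted p = 0.0766), and -0.80 ± 0.22 in pituitary (SE, adjusted p = 0.00246, edgeR quasi-likelihood test).

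PSMB7, the trypsin-like subunit, had medians of 139 CPM in muscle, 103 CPM in liver, 147 CPM in fat and 55.6 CPM in pituitary. Every pituitary library (31.2 to 71.9 CPM) was below every liver (77.2 to 223 CPM) and muscle library (111 to 248 CPM). For PSMB7 the log2 fold change was -1.48 ± 0.20 in pituitary (SE, adjusted p = 8.93e-08), 0.60 ± 0.20 in muscle (SE, adjusted p = 0.00599) and 0.75 ± 0.20 in fat (SE, adjusted p = 0.000677, edgeR quasi-likelihood test). The muscle calls of PSMB5 (0.32, adjusted p = 0.104) and PSMB7 (0.035, adjusted p = 0.908) and the pituitary call of PSMB6 (-0.18, adjusted p = 0.386) were lost with library sizes alone.

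In pituitary all 14 constitutive 20S genes and 14 of the 17 genes of the 19S particle were lower, with medians of -1.06 and -0.80 on the log2 scale. With library sizes alone 7 of the 14 and 4 of the 17 were called lower, and 2 of the 17 were called higher. Under that scaling 2358 of all 13148 genes were called lower in pituitary and 7070 higher. The smallest p-values among lower genes belonged to PSMD3, PSMB8 and PSMA5. PSMD3, a structural subunit of the 19S lid, had 65.9 to 104 CPM in pituitary (median 89.3), and its lowest library in any other tissue had 127 CPM. Its log2 fold change was -1.41 ± 0.14 (SE, adjusted p = 8.07e-11, edgeR quasi-likelihood test).

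PSMA5, a subunit of the alpha ring, had 20.4 to 42.8 CPM in pituitary (median 33.8), 36.9 to 94.6 in liver (median 56.4), 70.8 to 208 in fat (median 109) and 60.1 to 135 in muscle (median 103). The pituitary libraries overlapped only the lowest livers, and fat was above the mean of the other tissues in 10 of 10 animals. Its log2 fold change was -1.46 ± 0.16 in pituitary (SE, adjusted p = 1.47e-09) and 0.97 ± 0.16 in fat (SE, adjusted p = 7.39e-07, edgeR quasi-likelihood test).

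PSMD5 and PSMC3IP were the 2 genes called higher in pituitary. Leaving out 1 animal ended the call of PSMD5 in 7 of 10 fits (adjusted p = 0.0537 to 0.0916) and of PSMC3IP in 6 of 10 (adjusted p = 0.0578 to 0.0990). PSMD5, a chaperone that holds the ATPases before the base is assembled, had 34.6 to 77.4 CPM there (median 52.6) and medians of 41.4, 33.9 and 52.2 CPM in liver, fat and muscle. The ranges overlapped in every tissue, and the log2 fold change was 0.34 ± 0.15 (SE, adjusted p = 0.0381, edgeR quasi-likelihood test). PSMC3IP had 2 to 19 reads per pituitary library and 0 to 29 reads per library elsewhere, and its log2 fold change of 0.85 ± 0.36 (SE, adjusted p = 0.0316, edgeR quasi-likelihood test) rests on these few reads.

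The inducible subunits PSMB8, PSMB9 and PSMB10 were all called higher in fat. PSMB8 (LMP7) had 19.9 to 103 CPM in fat (median 35.6), 9.27 to 24.8 in liver (median 16.6), 6.22 to 21.4 in muscle (median 11.8) and 3.12 to 6.71 in pituitary (median 5.14). Fat was above the mean of the other tissues in 10 of 10 animals and pituitary below it in 10 of 10. For PSMB8 the log2 fold change was 2.11 ± 0.20 in fat (SE, adjusted p = 2.08e-13) and -2.01 ± 0.20 in pituitary (SE, adjusted p = 1.91e-10, edgeR quasi-likelihood test).

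PSMB9 (LMP2), the neighbour of PSMB8 in the MHC region, had 3.08 to 38.8 CPM in fat (median 7.0), 2.10 to 7.88 in liver (median 4.52), 1.38 to 5.28 in muscle (median 2.54) and 0.725 to 3.26 in pituitary (median 1.89). The fat libraries overlapped those of all other tissues, although fat was above the mean of the other tissues in 10 of 10 animals and the highest tissue in 7. The log2 fold change was 1.73 ± 0.30 in fat (SE, adjusted p = 7.06e-07) and -1.41 ± 0.31 in pituitary (SE, adjusted p = 0.000227, edgeR quasi-likelihood test).

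PSMB10 (MECL-1) was called higher in fat but not lower in pituitary. It had 20.3 to 191 CPM in fat (median 27.4), 17.97 to 55.4 in pituitary (median 37.9), 12.4 to 39.9 in muscle (median 15.6) and 10.6 to 21.5 in liver (median 12.7). In fat the 3 highest libraries, those of cow 2, cow 4 and bull 5, held 81.3, 158 and 191 CPM, and the other 7 lay between 20.3 and 28.8 CPM. The log2 fold change was 1.49 ± 0.27 in fat (SE, adjusted p = 2.18e-06), -1.26 ± 0.27 in liver (SE, adjusted p = 0.000257), -0.73 ± 0.27 in muscle (SE, adjusted p = 0.0245) and 0.50 ± 0.27 in pituitary, which did not pass (SE, adjusted p = 0.0932, edgeR quasi-likelihood test). In pituitary it did pass with the animal as a block (0.62, adjusted p = 0.0300), without the fat of bull 5 (0.66, adjusted p = 0.0127) and without bull 5 (0.75, adjusted p = 0.00788), and the muscle call was lost without bull 4 or cow 5 (adjusted p = 0.0516 and 0.0507). In the RefSeq annotation of ARS-UCD2.0 PSMB10 overlaps *LCAT*, and reads of overlapping genes may be split or lost by the counting.

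The 3 fat libraries with the most PSMB10 were also those with the most of PSMG3, a chaperone of 20S assembly. They held 38.7, 25.1 and 72.5 CPM of PSMG3, against 4.09 to 12.2 CPM in the other 7 fat libraries. PSMG3 was named after its values were seen.

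PSMB11, the catalytic subunit of the thymic proteasome, was at or near the limit of detection. It had no read in any liver or muscle library, 0 or 1 read in pituitary and 0 to 7 reads in fat, where the cows held 5, 7, 2, 2 and 2 reads and the bulls 1, 0, 0, 0 and 2. No read in a library leaves room for up to 3 reads, so its call as higher in fat is not described by a fold change. PSMB11 overlaps PSMB5 in the RefSeq annotation of ARS-UCD2.0.

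Without the fat of bull 5, the fat calls fell from 18 higher and 9 lower to 11 higher and 9 lower. The median of the 46 genes in fat fell from 0.32 to 0.06. Of all 13148 genes, 3831 were then called higher and 4003 lower in fat, with a median of -0.07. All 4 inducible or thymic genes were still called higher, and the constitutive 20S genes called higher in fat went from 6 of 14 to 2 of 14. The log2 fold changes in fat became 1.80 for PSMB8, 1.08 for PSMB9, 1.02 for PSMB10, 0.45 for PSMB7, 0.79 for PSMA5, -0.88 for PSME4, -0.82 for PSMD11 and -0.73 for PSMD12, all still called (adjusted p of at most 0.0277, edgeR quasi-likelihood test), and those of PSMB7 and PSMB9 moved by over 1.5 times. In the other tissues the calls without this library were 29 higher and 3 lower in muscle, 3 and 34 in pituitary, and 12 and 7 in liver. Those of all 13148 genes were 3916 higher and 4375 lower in muscle, 4556 and 4131 in pituitary, and 4034 and 4458 in liver.

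The fat of bull 5 had the highest level of its tissue for 33 of the 46 genes. The same count was not made over all genes, so it is not shown to be particular to the proteasome genes. For all 14 constitutive 20S genes the fat of bull 5 was above each of the other 9 fat libraries, with a median of 2.91 times their median. The 19S particle was less uniform, with 10 of 17 genes above all others and a median of 1.61 times. PSMB5 had 278 CPM against at most 107 CPM, PSMB7 436 against at most 227 CPM and PSMB9 38.8 against at most 13.9 CPM. At the same time it held the lowest PSME4 (34.9 CPM) and the lowest PSMD10 (3.94 CPM) of the fat libraries. The summed fat markers (*PLIN1*, *FABP4*, *LEP*, *CIDEC* and *LPL*) reached 26210 CPM in this library against at most 13860 CPM in the other fat libraries, and the summed leukocyte markers 3288 against at most 2065 CPM, and their part in the result was not tested.

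Fat showed fewer transcripts of several other proteasome genes. The lower genes with the smallest p-values were PSME4, PSMD11 and PSMD12, and the last of these, a subunit of the 19S lid, had 39.2 to 106 CPM in fat (median 53.8) and medians of 79.3, 150 and 66.5 CPM in liver, muscle and pituitary. Fat was below the mean of the other tissues in 9 of 10 animals, the exception having 106 CPM. The log2 fold changes in fat were -0.74 ± 0.16 for PSMD12 (SE, adjusted p = 0.000270) and -0.86 ± 0.16 for PSMD11 (SE, adjusted p = 1.61e-05, edgeR quasi-likelihood test). The call of PSMD12 was lost with library sizes alone (-0.26, adjusted p = 0.189).

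In liver the genes with the clearest rise were PSMF1, PSME1 and PSMB2. PSMF1 (PI31), first described as an inhibitor of the 20S core, had 48.0 to 169 CPM in liver (median 84.9) and medians of 39.8, 51.5 and 36.0 CPM in fat, muscle and pituitary. Liver was above the mean of the other tissues in 9 of 10 animals and the highest tissue in 8, and the log2 fold change was 1.01 ± 0.16 (SE, adjusted p = 1.79e-07, edgeR quasi-likelihood test). PSMB2, a non-catalytic subunit of the beta ring, had 61.4 to 224 CPM in liver (median 94.3), against medians of 83.0, 83.2 and 37.1 CPM in fat, muscle and pituitary. The liver range overlapped those of the other tissues, and the log2 fold change was 0.70 ± 0.19 (SE, adjusted p = 0.000905, edgeR quasi-likelihood test). The liver calls of PSMB2 (0.19, adjusted p = 0.305) and PSME1 (0.31, adjusted p = 0.0596) were lost with library sizes alone.

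The genes lower in liver were led by PSMD13, PSMD2 and PSMB10. PSMD13, a subunit of the 19S lid, had 37.1 to 76.7 CPM in liver (median 56.8) and medians of 94.0, 112 and 79.6 CPM in fat, muscle and pituitary, and liver was below the mean of the other tissues in 10 of 10 animals and the lowest tissue in 9. PSMD2, a scaffold subunit of the 19S base, had 110 to 228 CPM in liver (median 174) against 229, 417 and 181 CPM as medians in fat, muscle and pituitary, and liver was below the mean of the other tissues in 10 of 10 animals and the lowest tissue in 6. The log2 fold changes were -0.75 ± 0.15 for PSMD13 (SE, adjusted p = 4.26e-05) and -0.65 ± 0.13 for PSMD2 (SE, adjusted p = 5.35e-05, edgeR quasi-likelihood test).

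**Figure D3:**
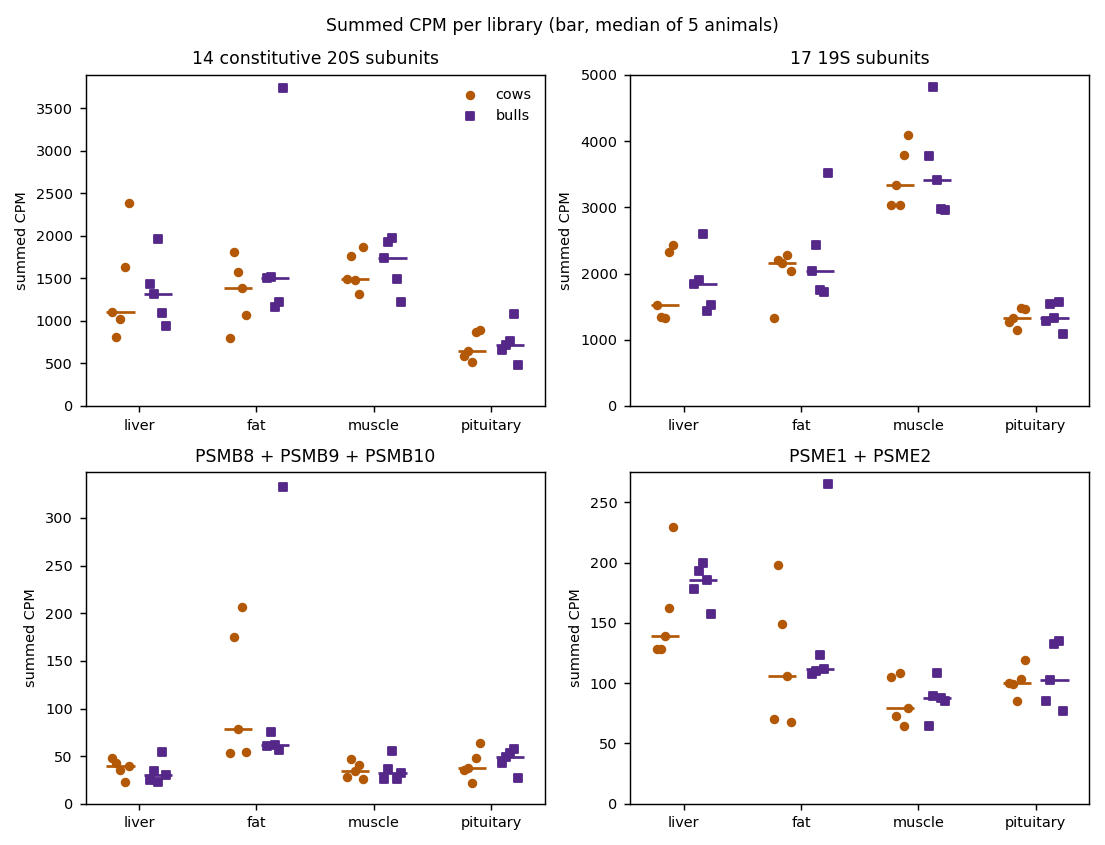
Summed CPM of 4 groups of proteasome genes in each library (points, cows in orange and bulls in purple) by tissue, with bars at the median of 5 animals. The 19S sum lies between 2962 and 4819 CPM in muscle and between 1085 and 1565 CPM in pituitary, and the fat of bull 5 is the top point of the fat groups.

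Each inducible catalytic subunit was also set against the constitutive subunit it replaces. Such a ratio within a library depends on the scaling only through the 0.5 CPM added to both terms, which weighs more where a level is low. The log2 ratio of PSMB8 to PSMB5 (0.5 CPM added to both) had means of -1.07 ± 0.42 in fat, -2.22 ± 0.76 in liver, -2.87 ± 0.40 in pituitary and -3.30 ± 0.73 in muscle (SD, n = 10 each). Fat exceeded muscle by 2.22 ± 0.59 (SD of the paired difference, n = 10 animals) and pituitary by 1.80 ± 0.46, both in 10 of 10 animals (exact two-sided sign-change permutation test, adjusted p = 0.00502 over 18 tests, p = 0.00195, the smallest the test can give). Fat exceeded liver in 9 of 10 animals (adjusted p = 0.00703) and liver exceeded muscle in 10 of 10 (adjusted p = 0.00502, exact permutation tests). Muscle minus pituitary, neighbours in this order, was -0.43, which did not pass (adjusted p = 0.0656, exact permutation test).

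The log2 ratio of PSMB9 to PSMB6 had the same order of means, -3.28 ± 0.81 in fat, -3.67 ± 0.85 in liver, -4.20 ± 0.30 in pituitary and -4.78 ± 0.60 in muscle (SD, n = 10 each). Fat against liver did not pass, with a mean liver minus fat difference of -0.40 and liver the higher tissue in 4 of 10 animals (adjusted p = 0.308, exact permutation test). Liver against pituitary missed the threshold (adjusted p = 0.0725), and the other 4 pairs passed, with fat above muscle in 10 of 10 animals by 1.51 ± 1.07 (SD, adjusted p = 0.00502, exact permutation tests). PSMB9 had only 0.725 to 3.26 CPM in pituitary and 1.38 to 5.28 CPM in muscle, so the 0.5 CPM added weighs on this ratio there. The difference between muscle and pituitary depends in part on that addition, and a smaller one was not tried.

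The log2 ratio of PSMB10 to PSMB7 had another order, with means of -0.54 ± 0.20 in pituitary, -1.78 ± 0.995 in fat, -2.98 ± 0.73 in liver and -3.03 ± 0.58 in muscle (SD, n = 10 each). Pituitary was the highest tissue, above liver and above muscle in 10 of 10 animals, where liver minus pituitary was -2.44 ± 0.77 and muscle minus pituitary -2.50 ± 0.60 (SD, adjusted p = 0.00502 for both, exact permutation test). It was above fat in 9 of 10 animals, with a fat minus pituitary difference of -1.24 ± 1.02 (SD, adjusted p = 0.0135, exact permutation test). Its pituitary values lay between -0.93 and -0.25, and those of liver between -3.86 and -1.87, without overlap. Liver and muscle differed by 0.06 (adjusted p = 0.848, exact permutation test). In pituitary both terms of the ratio took part, since PSMB7 was at its lowest there and PSMB10 was not.

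**Figure D4:**
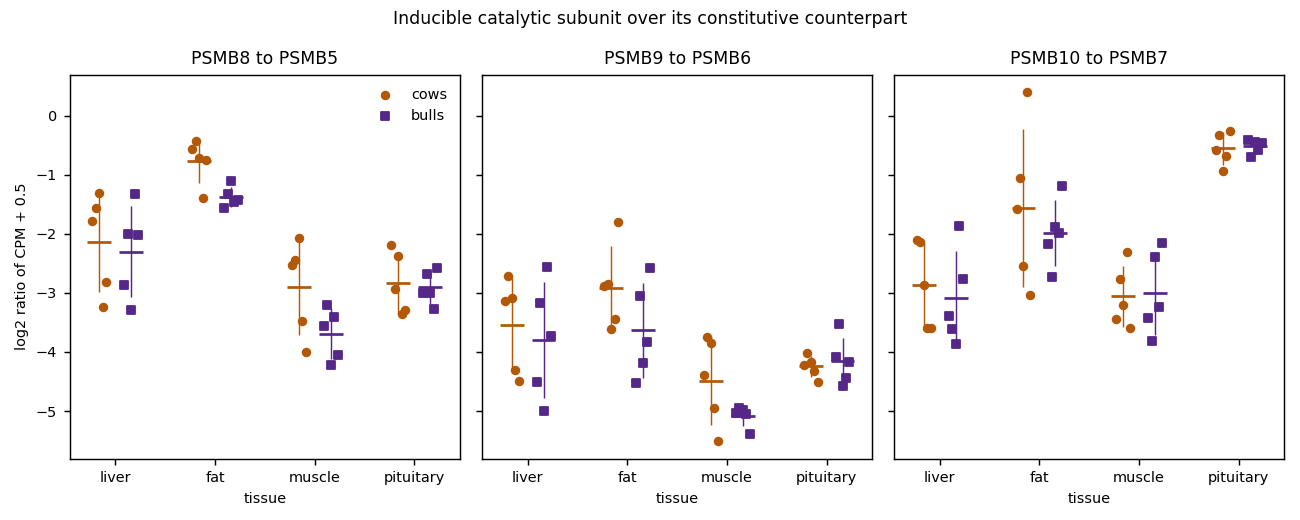
Log2 ratio of each inducible catalytic subunit to its constitutive counterpart by tissue (points, 5 cows in orange and 5 bulls in purple, lines at the mean with 1 SD). Fat has the highest ratios of PSMB8 to PSMB5, and pituitary the highest and tightest ratios of PSMB10 to PSMB7, between -0.93 and -0.25.

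Genes that bear on the immunoproteasome were counted beside these results. Of the 11 antigen processing genes found, which include the peptide transporter *TAP1* and *TAP2* and the MHC class I light chain *B2M*, 6 were called higher in liver and none lower, 3 higher and 3 lower in fat, 1 and 5 in muscle, and 2 and 5 in pituitary. *TAP1*, which lies with PSMB8 and PSMB9 in the MHC, had log2 fold changes of 0.85 in fat and -1.20 in pituitary. Of the 9 interferon targets, 7 were higher in liver, 2 were higher and 3 lower in fat, 1 and 7 in muscle, and 3 and 1 in pituitary. The shares of all genes called higher and lower were 28.1% and 36.1% in liver and 33.1% and 29.7% in fat. They were 30.9% and 31.7% in muscle and 33.6% and 31.8% in pituitary. In fat the counts of both lists were near these shares.

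Leukocyte markers were counted as well, to be read beside the same shares of all genes, and their part in the result was not tested. Of 10 markers 7 were called higher in liver, 5 higher in fat, 6 lower in muscle, and 1 higher and 9 lower in pituitary. Their summed level ran from 1048 to 2076 CPM in liver, 792 to 3288 in fat, 384 to 1399 in muscle and 428 to 801 in pituitary, with medians of 1339 CPM in liver and 1600 CPM in fat, and none of the 10 markers was at 0 in any library.

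Other genes of the pathway, which were not selected by symbol, mostly had the direction of the 19S particle in muscle and pituitary with TMM factors. Of 18 partners of the proteasome 15 were called higher and 1 lower in muscle, with a median log2 fold change of 1.10, and 1 higher and 15 lower in pituitary, with a median of -0.78. The shares of all genes were 30.9% and 31.7% in muscle and 33.6% and 31.8% in pituitary. *ZFAND5*, an activator of the proteasome linked to muscle wasting, was 3.14 higher on the log2 scale in muscle, and the transcription factor *NFE2L1*, which drives proteasome genes, 2.38 higher. In liver 4 of the partners were higher and 8 lower, and in fat 4 and 7, near the shares of all genes (28.1% and 36.1%, 33.1% and 29.7%). Counts under other scalings are not given for this list, so its directions are relative to the scaling as well.

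How far proteasome genes varied together among the 10 animals of a tissue was described by correlations of log2(CPM + 0.5), without a test, since all genes of a library share its depth and its scaling. The mean correlation between pairs of the 14 constitutive 20S genes was 0.79 in liver, 0.77 in fat, 0.66 in pituitary and 0.43 in muscle, and pairs of all genes with a mean of at least 5 CPM averaged 0.0025 to 0.016. For pairs of the 17 genes of the 19S particle it was 0.63 in liver and 0.32 to 0.33 in the other tissues. Without the fat of bull 5 the 20S mean in fat was 0.54 (n = 9).

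The inducible subunits did not follow the 20S core in the same way in each tissue. The mean correlation of PSMB8, PSMB9 and PSMB10 with the 14 constitutive 20S genes was 0.66 in pituitary, 0.70 in fat (0.40 without the fat of bull 5), 0.14 in muscle and -0.31 in liver (-0.21 without the library labelled liver of bull 3). Among themselves the 3 inducible genes had a mean correlation of 0.80 in liver, 0.79 in fat, 0.76 in pituitary and 0.31 in muscle. Their summed level correlated with the summed leukocyte markers at r = -0.42 in pituitary, -0.37 in muscle, 0.33 in fat and 0.72 in liver (n = 10 each). In fat the sign rested on 1 library, with r = -0.21 without bull 5 (n = 9), and in liver r was 0.66 without the library labelled bull 3 (n = 9). The summed level in pituitary was mostly PSMB10 (17.97 to 55.4 CPM), with 3.12 to 6.71 CPM of PSMB8 and 0.725 to 3.26 CPM of PSMB9.

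The second comparison, that of the study, was between the sexes. M1 compares 5 libraries labelled as bulls with 5 labelled as cows within a tissue by edgeR's likelihood ratio test. Of all genes, 0.745% were called in pituitary, 0.517% in muscle, 0.175% in liver and 0.114% in fat. None of the 46 genes was called in any tissue. In M2, which holds sex and tissue in one model of 40 libraries, none was called against 1.69% of all genes, and none had an interaction of sex and tissue, against 0.335%. At an unadjusted p under 0.05 there were 2 genes each in muscle and fat, 0 in liver and pituitary, 5 in M2 and 1 in the interaction. Of all 13148 genes there were 1445 in muscle, 905 in fat, 980 in liver, 1219 in pituitary, 2193 in M2 and 1128 in the interaction. The quasi-likelihood test of edgeR, and for M1 and M2 also DESeq2, called none either. The library labelled liver of bull 3, which held *XIST* but no read of *DDX3Y*, *USP9Y* or *ZFY*, was kept as a bull in these fits. Without that library the likelihood ratio test called 0 of the 46 genes in liver, in M2 and for the interaction. Of all 13148 genes it then called 61, 176 and 45. M2 takes the libraries of an animal as independent, although the tissues of an animal are related. With the animal as a block (limma voom), M2 called 0 of the 46 genes and 8 of all 13148 genes. In that fit 0 of the 46 had an unadjusted p under 0.05, against 1215 of all 13148 genes.

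The estimates had wide errors. Leaving out PSMB11 and PSMC3IP, which had few reads, the log2 fold change of bulls against cows in M2 lay between -0.22 and 0.31 with a median SE of 0.15. The SEs of M2 take the libraries of an animal as independent. Within tissues the median SE was 0.22 in pituitary, 0.29 in muscle, 0.33 in liver and 0.40 in fat. The estimates leaned towards bulls, with 39 of 46 genes above 0 in M2 and a median of 0.12, where all genes had a median of -0.04. Without the fat of bull 5, 30 of 46 were above 0 and the median was 0.07. In fat itself the median went from 0.35 to 0.05 without that library, and in liver from 0.08 to -0.07 without the library labelled liver of bull 3.

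**Figure D5:**
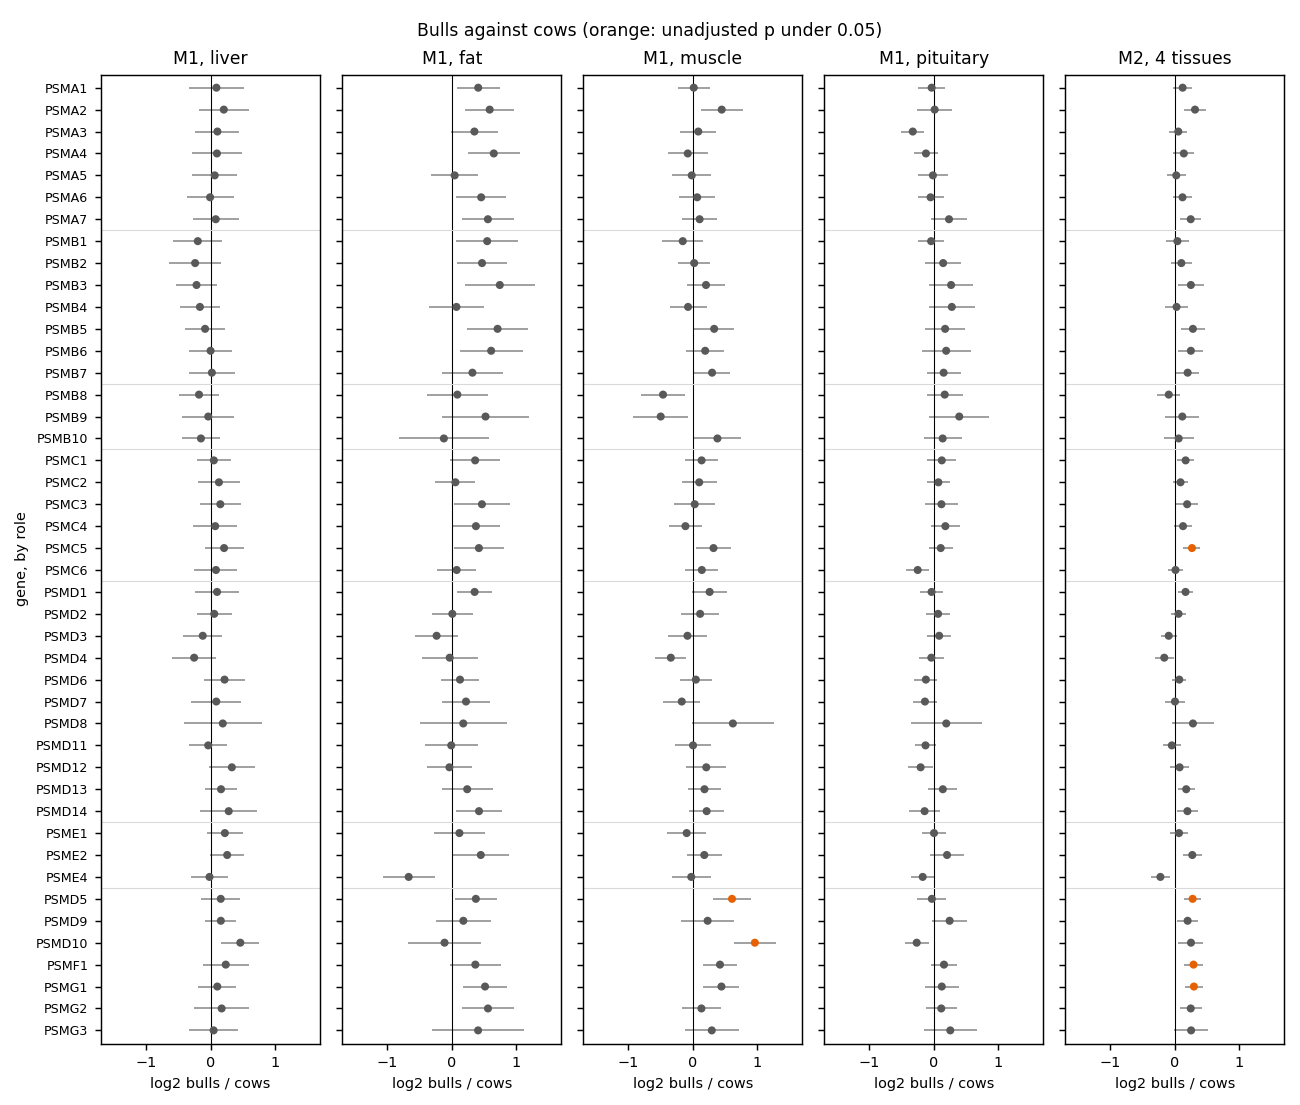
Log2 fold change of bulls over cows for 44 genes (rows, by role) within each tissue (M1) and over the 4 tissues (M2), with bars of 1 SE. Orange points had an unadjusted p under 0.05, none passed after adjustment, and PSMB11 and PSMC3IP are left out for their few reads.

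PSMD10 (gankyrin), a chaperone of the 19S base that lies on chromosome X in ARS-UCD2.0, had the smallest p in muscle. In muscle the cows had 12.3, 11.7, 14.1, 28.2 and 18.1 CPM and the bulls 31.6, 50.0, 23.0, 34.3 and 24.6 CPM. The groups overlapped through cow 4, whose 28.2 CPM was above the lowest pair of bulls. The log2 fold change was 0.96 ± 0.32 (SE, adjusted p = 0.152, edgeR likelihood ratio test), and without cow 4 it was 1.23 (adjusted p = 0.00399). Without cow 4 the share of all genes called in muscle also went from 0.517% to 4.21%, and PSMD10 was the 1 gene of the 46 that was called.

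PSMD10 also had the smallest p in liver, with 8.32 to 17.6 CPM in cows and 13.97 to 24.6 CPM in bulls, which overlapped. The highest of these values is that of the library labelled liver of bull 3, and the other bulls reached 20.9 CPM. Its log2 fold change there was 0.46 ± 0.29 (SE, adjusted p = 0.834, edgeR likelihood ratio test) and 0.34 without that library. In pituitary the smallest p belonged to PSMA3, an alpha ring subunit, with 69.2, 79.2, 64.6, 76.1 and 60.1 CPM in cows and 46.2, 65.2, 57.6, 64.0 and 45.1 CPM in bulls. These values overlapped, and the log2 fold change was -0.33 ± 0.18 (SE, adjusted p = 0.583, edgeR likelihood ratio test). In fat it belonged to PSMB11 (adjusted p = 0.614, edgeR likelihood ratio test), whose reads are given above.

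In M2 the smallest p-values were those of PSMB11 (adjusted p = 0.131), PSMG1 (adjusted p = 0.236) and PSMD5 (adjusted p = 0.273, edgeR likelihood ratio test). PSMG1, a chaperone of alpha ring assembly, had medians between 29.4 and 47.4 CPM over the tissues and a log2 fold change of 0.30 ± 0.13 (SE). PSMD5 had a log2 fold change of 0.28 ± 0.13 (SE). Leaving out 1 animal at a time gave at most 1 call, PSMB11 without bull 5 (adjusted p = 0.0472) and PSMA2, of the alpha ring, without cow 5 (log2 fold change 0.52, adjusted p = 0.0307). In these fits 3.49% and 5.43% of all genes were called, so 1 of 46 is no more than the background.

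The ratios of inducible to constitutive subunits gave no difference between the sexes after adjustment in any of 12 tests. The lowest p was that of PSMB8 to PSMB5 in fat, where the log2 ratio was -0.57, -0.42, -0.72, -1.39 and -0.75 in cows and -1.56, -1.33, -1.11, -1.46 and -1.43 in bulls. Cow 4 was the only cow within the range of the bulls. The mean of the bulls minus that of the cows was -0.60 on the log2 scale (exact two-sided permutation test, p = 0.0238, adjusted p = 0.286). The other 11 tests had adjusted p of 0.524 or more (exact permutation tests, n = 5 against 5, smallest possible p = 0.00794).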

How the data were processed

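RNA-seq reads of 40 libraries were trimmed, aligned to the cattle genome (bosTau7) and counted per gene symbol by the authors (per the labels and methods: Trimmomatic, Bowtie2, TopHat2, SAMtools and HTSeq, with the strand setting and the HTSeq version not given in the sources used here). The deposited files hold raw counts, and the standard library kit does not mark strand, so reads of overlapping genes cannot be told apart by strand. Rows without a gene name (0.114% to 2.69% of reads on genes) and reads outside genes were left out. The age, sex, tissue and ear tag came from the labels, and the tissues of an animal were paired by the ear tag.

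Genes with at least 1 read in 1 library (13148 of 13570) were fitted with edgeR 4.0.16 in R 4.3.3, with TMM factors and Benjamini-Hochberg adjustment over all genes tested. M1 and M2 used the likelihood ratio test, as in the study, and the tissue contrasts the quasi-likelihood test. CPM used the TMM-scaled library sizes. The standard errors came from the fitted models. Ratios were tested by exact permutation with 0.5 CPM added. Alternatives were DESeq2 1.42.0, limma 3.58.1 (voom, animal as a random effect), other scalings and filters, and leaving out animals or libraries. Leaving out the fat of bull 5 was chosen after seeing the data. Scripts were tested on simulated data. By the ear tags the animals are separate, so the spread is taken as between animals. This is uncertain for the library labelled as a bull liver that held *XIST* and no read of the Y chromosome genes named above. By correlation its closest library was the liver of a cow. The animal it came from was not tested, so its pairing by ear tag is uncertain too. Deviations from the group means correlated at a median of 0.20 between tissues of an animal and -0.06 between tissues of different animals of a sex.

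The genes and lists were chosen with earlier results of these data known. Values in full are given for the catalytic and activator genes PSMB5 to PSMB10 and PSME1, PSME2 and PSME4, for the 3 smallest p-values in each direction of each tissue contrast, for the smallest p in each M1 fit and the 3 smallest in M2, and for PSMC3IP. Chromosomes and overlaps are from RefSeq for ARS-UCD2.0, another build than that of the counts, so no coordinates are given, and gene sequences were not used here. The values of 1 gene of the list of proteasome partners are not reported here, although the counts over that list include it.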

Additional observations from a re-analysis of the deposited data

Results flagged for a closer look

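Within groups of 5 animals of a sex and tissue, a value was singled out where its gap to the nearest other animal was more than 0.71 of the whole range (Dixon's ratio). Of 203 groups of the genes and sums named above, 29 were singled out. The cut-off gives about 1 in 20 for independent groups of normally distributed values. The genes here vary together within a library, so the count of 29 cannot be set against that rate. The fat of bull 5 accounted for 14 of the 29. Its levels were high for PSMA3 (207.5 CPM), PSMA5 (208 CPM), PSMB2 (238 CPM), PSMB5 (278 CPM), PSMB6 (234 CPM), PSMB7 (436 CPM), PSMB8 (103.0 CPM), PSMB9 (38.8 CPM), PSMB10 (191 CPM), PSMD7 (220.0 CPM), PSMD13 (236 CPM), PSME1 (135.0 CPM) and PSME2 (130 CPM), and for the sum of the 14 constitutive 20S genes (3734 CPM, against 1165 to 1513 CPM in the other bulls). The other tissues of bull 5 gave a low PSMA3 in muscle (89.7 CPM), a low PSME2 in liver (44.4 CPM) and a high PSMC3IP in pituitary (1.24 CPM).

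Cow 5 was high for PSMB2 (106 CPM) and PSMB7 (171 CPM) in muscle and for PSMD10 (35.2 CPM) and PSMD12 (106 CPM) in fat. In muscle bull 1 was high for PSME4 (786 CPM) and low for PSME1 (29.2 CPM), bull 2 was high for PSMD2 (668 CPM), and cow 2 was low for PSMG1 (20.7 CPM). In liver bull 4 was high for PSMB10 (21.5 CPM), and the library labelled bull 3 was high for PSMD11 (152 CPM). The 19S sum was low in the fat of cow 1 (1324 CPM, against 2036 to 2284 CPM in the other cows), and PSMB11 in the pituitary of cow 1 (0.063 CPM) was a single read.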

How the results depend on the processing

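The tissue counts moved by over 1.5 times mainly with the scaling. With library sizes alone they were 1 higher and 27 lower in liver, 36 and 2 in fat, 12 and 13 in muscle, and 8 and 14 in pituitary, against 8 and 8, 18 and 9, 29 and 3, and 2 and 36 with TMM factors, while RLE factors and DESeq2 moved none of these counts by that much. The counts of all genes called with library sizes alone are given above with the first comparison. Without the fat of bull 5, 11 genes were higher in fat, against 3831 of all 13148 genes. In pituitary 4 genes were higher with the animal as a replicate block and 1 with the filter on low counts (filterByExpr), and the block moved no other tissue count by over 1.5 times and, among the named genes, changed only the calls of PSMB10 in pituitary and PSME2 in fat. Leaving out 1 animal gave 13 to 23 genes higher and 7 to 9 lower in fat, 26 to 29 and 2 to 3 in muscle, 6 to 11 and 7 to 10 in liver, and 0 to 2 and 33 to 36 in pituitary. It gave 0 to 1 genes called between the sexes in muscle (PSMD10 without cow 4), 0 to 1 in M2 (PSMB11 without bull 5, PSMA2 without cow 5), and 0 in M1 of the other tissues.

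Of the named genes with small differences some changed sign. PSMB5 in liver, -0.03 with all libraries and TMM, was 0.058 with RLE factors, 0.058 with DESeq2, 0.0041 with filterByExpr and 0.15 without the fat of bull 5, and lay between -0.13 and 0.11 when 1 animal was left out. PSME1 in fat, at 0.04, was -0.00082 with RLE factors, -0.00073 with DESeq2, -0.14 without the fat of bull 5, and between -0.074 and 0.13 with 1 animal left out. PSMB5 in fat turned to -0.0093 without the fat of bull 5. With library sizes alone PSMB6 in muscle was -0.010, PSMB7, PSMB8 and PSMB9 in liver -0.37, -0.25 and -0.19, PSME1 in pituitary 0.46, PSME2 in liver -0.025 and PSME2 in pituitary 0.24.

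The ratio of PSMB8 to PSMB5 between muscle and pituitary passed the test with 1 CPM added (-0.48, adjusted p = 0.0398, exact permutation test) and without cow 2 or cow 3, and lay between -0.53 and -0.31 with 1 animal left out. That of PSMB9 to PSMB6 between liver and pituitary passed without the library labelled liver of bull 3 (0.64, adjusted p = 0.0422, exact permutation test, n = 9), and also without bull 1, with a range of 0.38 to 0.64 when 1 animal was left out. For PSMB10 to PSMB7 liver minus muscle lay between -0.091 and 0.22 with 1 animal left out. The other tissue differences of the ratios stayed on their side of the threshold under the 2 pseudocounts, with 1 animal left out, without the fat of bull 5 and without pairing by animal. Between the sexes, bulls minus cows in liver was 0.087 for PSMB8 to PSMB5 and 0.054 for PSMB9 to PSMB6 without the library labelled liver of bull 3. With 1 animal left out, PSMB8 to PSMB5 ranged from -0.43 to 0.087 in liver and from -0.21 to 0.085 in pituitary, PSMB9 to PSMB6 from -0.55 to 0.054 in liver and from -0.069 to 0.19 in pituitary, and PSMB10 to PSMB7 from -0.80 to 0.061 in fat, -0.16 to 0.26 in muscle and -0.056 to 0.11 in pituitary. None of these sex differences passed. The causes of these changes were not tested. With 5 animals a sex, and SEs of 0.11 to 0.33 in M2 for all but PSMB11 and PSMC3IP, smaller sex differences could not be resolved, and PSMB11 and PSMC3IP were limited by their reads. These SEs do not take the pairing of tissues by animal into account.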

Other observations

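In some libraries many of the 46 genes were at the highest or the lowest level of their tissue. Such counts were not made over all genes, so they are not shown to be particular to the proteasome genes. The pituitary of bull 4 had the highest level of its tissue for 22 of the 46 genes and the lowest for none, and the pituitary of cow 3 the lowest for 23. In liver cow 5 was the highest for 18 genes and cow 2 the lowest for 23. In fat cow 1 was the lowest for 19 genes, and cow 5 was the lowest for 14 and the highest for 6, among them PSMD10 at 35.2 CPM and PSME4 at 181 CPM. In muscle bull 2 was the highest for 15 genes. These counts describe single libraries, and neither depth, tissue composition nor the animal was tested as a source.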
